A study of Rattus norvegicus with 18 samples.

Results

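Spon2, Wif1, Wnt5a and Colec12 are 4 of the 4616 genes named in a table of rat lung log2 ratios, smoke over fresh air. They were taken by gene symbol, and each had 2 rows that repeat 1 probe. The genes were chosen by their low mean log2 ratios against air at the high dose, at the low dose or at both, in these same samples. Their values against air are therefore given as a description with no test, and so is the difference between the doses, which is built from the same means. Hours and weeks compare ratios with each other and do not contain the mean that chose the genes.

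Rats breathed diluted cigarette smoke through the nose at 600 (high dose) or 300 (low dose) µg total particulate matter per litre, or conditioned fresh air. Exposure lasted 2, 7 or 13 weeks, with 1 h of smoke 2 times a day on 5 days a week, and the lung was sampled when 2, 6 or 20 hours had passed since smoke ended. Each of the 18 samples was a pool of 4 smoke-exposed rats in Cy5 against a pool of 4 fresh-air rats in Cy3, with 1 sample per condition and no dye swap named. The high-dose and low-dose sample of a combination of weeks and hours shared 1 of 9 air pools, so both move together when that pool does. No strain, sex or age was stated in the labels used here. A constant dye effect adds to every ratio against air and cancels between hours, weeks and doses. The ratios hold no level of expression, so the labelled tissue could not be checked against its markers. In whole lung, fewer cells of a type and less RNA per cell cannot be told apart.

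The 4 genes act outside or at the surface of the cell. Spon2, also called mindin, is a secreted matrix protein of the spondin family that binds microbes and integrins in mouse innate defence. Wnt5a is a secreted Wnt ligand that signals mainly without beta-catenin through receptors such as Ror2, and Wif1 is a secreted inhibitor that binds Wnt proteins before they reach their receptors. Colec12 is a collectin and scavenger receptor held in the membrane, so the name secreted fits the other three better. In the lung, Wnt signals between mesenchyme and epithelium shape development and take part in repair.

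The promoters of the 4 genes are shown as a description, as cigarette smoke is known to hold ligands of the aryl hydrocarbon receptor. That the 4 genes lay below air together follows from how they were chosen, and a link to this receptor was not tested. Capitals mark the core of the site this receptor binds with its partner, GCGTG or its reverse complement CACGC. The sequences run 5′ to 3′ over 250 bases before and 50 after the gene start on the plus strand, from RefSeq, build GRCr8. The start is that of the RefSeq table of promoters, and the windows of Spon2, Wif1 and Wnt5a lie inside the annotated gene spans.
Spon2, chr14:81736466-81736765: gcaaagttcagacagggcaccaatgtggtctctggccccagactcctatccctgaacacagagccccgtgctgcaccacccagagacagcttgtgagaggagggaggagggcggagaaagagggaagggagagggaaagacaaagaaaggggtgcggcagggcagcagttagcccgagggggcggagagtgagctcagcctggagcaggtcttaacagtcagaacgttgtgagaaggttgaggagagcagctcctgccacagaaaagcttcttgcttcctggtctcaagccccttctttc
Wif1, chr7:58433329-58433628: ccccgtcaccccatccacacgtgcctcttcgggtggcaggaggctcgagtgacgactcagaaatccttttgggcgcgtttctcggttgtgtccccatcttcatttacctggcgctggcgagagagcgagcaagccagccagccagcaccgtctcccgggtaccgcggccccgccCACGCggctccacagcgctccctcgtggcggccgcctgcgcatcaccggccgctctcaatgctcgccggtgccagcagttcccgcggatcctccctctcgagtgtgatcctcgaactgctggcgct
Wnt5a, chr16:3703415-3703714: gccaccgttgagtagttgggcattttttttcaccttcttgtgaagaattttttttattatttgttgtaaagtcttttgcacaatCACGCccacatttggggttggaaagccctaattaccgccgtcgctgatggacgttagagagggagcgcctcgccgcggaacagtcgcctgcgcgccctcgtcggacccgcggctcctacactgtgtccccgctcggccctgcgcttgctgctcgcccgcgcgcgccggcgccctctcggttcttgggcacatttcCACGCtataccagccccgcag
Colec12, chr18:1005537-1005836: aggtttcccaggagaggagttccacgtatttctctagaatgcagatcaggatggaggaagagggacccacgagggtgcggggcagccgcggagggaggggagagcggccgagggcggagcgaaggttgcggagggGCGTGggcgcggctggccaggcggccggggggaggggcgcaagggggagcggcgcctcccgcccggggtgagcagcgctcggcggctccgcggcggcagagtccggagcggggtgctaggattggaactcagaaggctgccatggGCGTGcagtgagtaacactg
The core stood 0 times in the Spon2 window, 1 time in that of Wif1 and 2 times each in those of Wnt5a and Colec12, and 29.7% of the 33469 rat promoters of this length hold it. The Spon2 window had 6 CG pairs, against 32 for Wif1, 30 for Wnt5a, 29 for Colec12 and a median of 7 over all promoters. An E-box CACGTG stood 1 time in the Wif1 window, where 6.4% of promoters have one, and 0 times in the other three. On both strands, the antioxidant response element TGACNNNGC, the TCF/LEF letters CTTTGA, the glucocorticoid receptor letters AGAACA and TATAAA matched in none of the 4 windows. They stand in 12.1%, 16.1%, 20.7% and 14.2% of promoters. A match describes letters only, and no match says only that these letters are not in this window.

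Spon2 lay below air in all 18 samples and was the gene with the lowest mean at either dose among 4016 genes. At the high dose its log2 ratio ran over a lowest value of -1.69, a median of -1.36 and a highest of -0.49 (mean -1.22 ± 0.47 SD, n = 9). At the low dose the lowest was -1.74, the median -1.12 and the highest -0.29 (mean -1.05 ± 0.45 SD, n = 9). The means stand for 0.429 times the air level at the high dose and 0.482 times at the low dose. At the high dose 3.46% of genes with 9 values lay below air in all 9 samples, and at the low dose 1.37% did. In 16 of 18 samples Spon2 was among the lowest 1% of genes.

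Colec12 also lay below air in all 18 samples, but its ratios were smaller and closer together. At the high dose they had a lowest value of -0.84, a median of -0.43 and a highest of -0.23 (mean -0.47 ± 0.19 SD, n = 9). At the low dose the lowest was -0.76, the median -0.43 and the highest -0.20 (mean -0.47 ± 0.17 SD, n = 9). Over the 18 samples its SD was 0.176, close to the median of 0.185 over 3560 genes with every value. That of Spon2, at 0.453, was larger than in 98.4% of these genes. Of these 3560 genes, 0.534% lay below air in all 18 samples.

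Wif1 lay below air in 17 of 18 samples. At the high dose its lowest log2 ratio was -1.06, the median -0.64 and the highest -0.07 (mean -0.56 ± 0.31 SD, n = 9). At the low dose the lowest was -0.81, the median -0.47 and the highest 0.04 (mean -0.43 ± 0.29 SD, n = 9). The sample above air was the low dose at 2 weeks and 20 hours.

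Wnt5a lay below air in 16 of 18 samples, the fewest of the 4 genes. It lay below air in 7 of 9 high-dose samples, with a lowest log2 ratio of -1.06, a median of -0.30 and a highest of 0.24 (mean -0.33 ± 0.44 SD). It lay below air in 9 of 9 low-dose samples, with a lowest of -0.89, a median of -0.40 and a highest of -0.22 (mean -0.46 ± 0.23 SD). Both values above air came from the high dose at 6 hours, after 2 and 13 weeks. By mean it ranked 85 from the lowest at the high dose and 6 at the low dose. At 7 weeks and 2 hours each dose had a value in only 1 of its 2 rows.

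**Figure D1:**
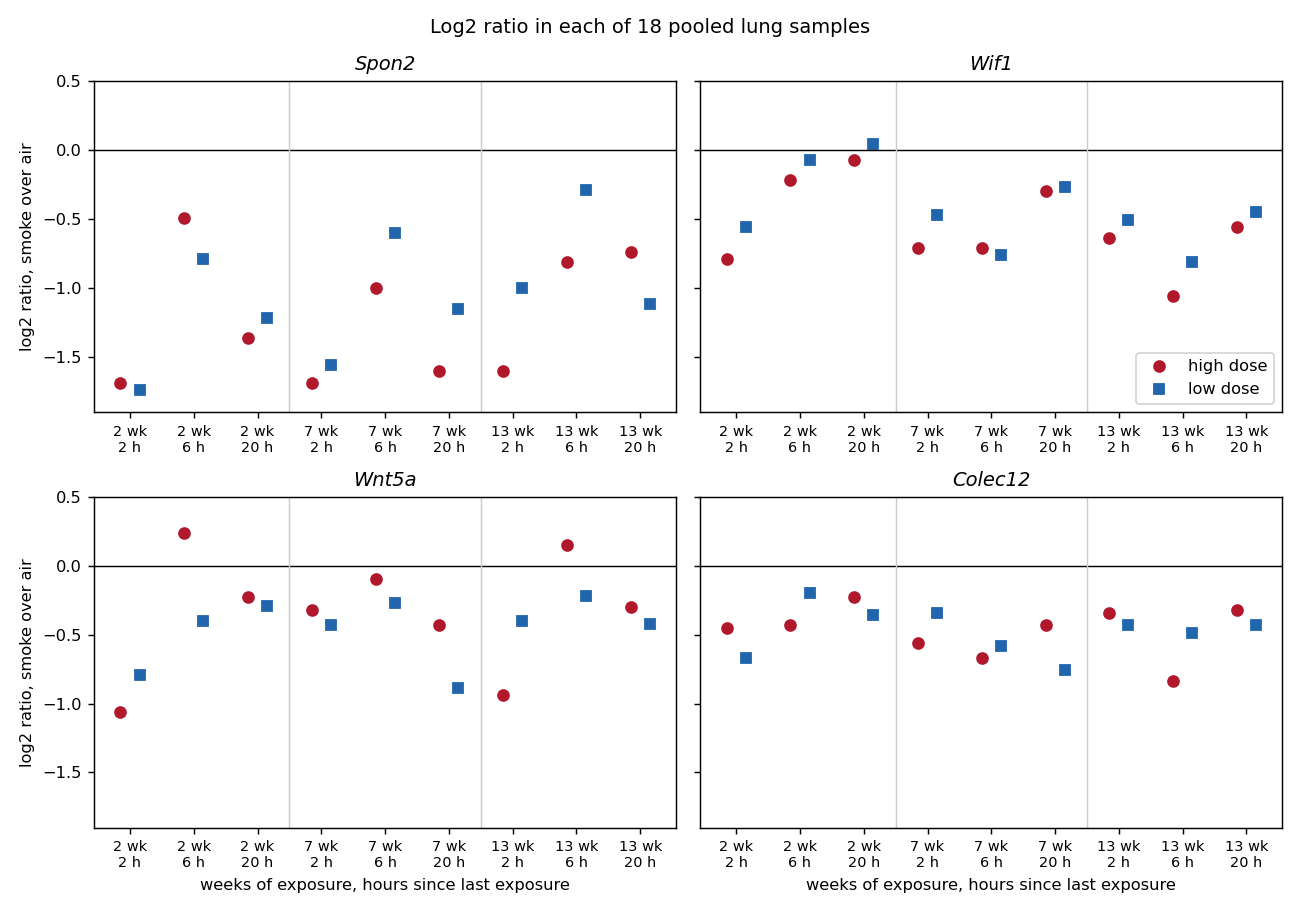
Log2 ratio of smoke over air (y axis) for each gene in every combination of weeks and hours (x axis), with circles for the high dose and squares for the low dose, 1 pooled sample each. All 18 Spon2 and all 18 Colec12 values lie below 0, whereas Wnt5a reaches 0.24 and Wif1 0.04.

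The time since the last exposure separated the Spon2 values. At 2 hours Spon2 stood at -1.69, -1.69 and -1.60 at the high dose after 2, 7 and 13 weeks, and at -1.74, -1.56 and -1.0 at the low dose. At 6 hours it stood at -0.49, -1.0 and -0.81 at the high dose and at -0.79, -0.60 and -0.29 at the low dose. At 20 hours it stood at -1.36, -1.60 and -0.74 at the high dose and at -1.22, -1.15 and -1.12 at the low dose. The 6-hour and 2-hour ranges met only at -1.0, while the 20-hour range overlapped both. Of 3560 genes, 0.871% had all 6 values at 2 hours below all 6 at 6 hours, which Spon2 missed by that tie. The ratio to air was thus 0.342 at 2 hours, 0.631 at 6 hours and 0.436 at 20 hours, from means over 6 samples.

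Hours were tested on the 9 means of the high-dose and low-dose sample of each air pool, with weeks as a covariate, in limma across 3994 genes. Spon2 passed (F test, adjusted p = 0.0022), as did 64 genes in all (1.6%), and it ranked 13 by p. Its log2 ratio at 6 hours was above that at 2 hours by 0.88 ± 0.10 (SE, adjusted p = 0.00107), as 0.626% of genes were higher by limma. At 20 hours it was lower than at 6 hours (-0.54 ± 0.10, adjusted p = 0.0328), as were 0.551% of genes. The difference of 20 minus 2 hours was 0.35 ± 0.10 and did not pass (adjusted p = 0.188). In each of the 3 exposure lengths the mean of the doses was lowest at 2 hours, next at 20 hours and nearest to air at 6 hours, an order that 1.57% of 3560 genes had. An exact two-sided permutation test of hours within weeks for Spon2 alone gave p = 0.0278, the smallest that its 216 arrangements allow.

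The Spon2 call over hours was lost with the high-dose samples alone (adjusted p = 0.102) and passed with the low-dose samples alone (adjusted p = 0.047), and these 2 fits share air pools. The spread over all genes also differed somewhat between hours, with overlapping ranges, which was not tested. The interquartile range of a sample was 0.29 to 0.41 at 2 hours, 0.22 to 0.33 at 6 hours and 0.23 to 0.35 at 20 hours. With every sample scaled to 1 range, an alternative added after seeing the data, Spon2 still passed (adjusted p = 0.0168).

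By its mean over 6 samples Wnt5a was also nearest to air at 6 hours (-0.10 ± 0.25 SD), but its difference over hours did not pass. At 2 hours it stood at -1.06, -0.32 and -0.94 at the high dose after 2, 7 and 13 weeks, and at -0.79, -0.43 and -0.40 at the low dose. At 6 hours it stood at 0.24, -0.10 and 0.15 at the high dose and at -0.40, -0.27 and -0.22 at the low dose. At 20 hours it stood at -0.23, -0.43 and -0.30 at the high dose and at -0.29, -0.89 and -0.42 at the low dose. The 3 high-dose values at 6 hours lay above all other high-dose values, as in 3.41% of 3757 genes, whereas the low-dose ranges overlapped. The mean of the doses was lower at 2 than at 6 hours in 3 of 3 exposure lengths, as in 16.5% of 3560 genes. The limma F test over hours gave adjusted p = 0.17, with a difference of 0.56 ± 0.15 (SE) for 6 minus 2 hours (adjusted p = 0.0977). Without the 7 week, 2 hour combination the F test passed (adjusted p = 0.0187), and in the other 19 alternatives tried it did not. With any other combination left out the F test gave adjusted p = 0.155 to 0.308, and with the low dose alone 0.767. In the 7 week, 2 hour combination each dose rests on a single row, but the 2 rows repeat 1 probe and were equal in 16 of 16 shared values.

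Wif1 was spread over hours in a way that looked different at 2 weeks than at 7 and 13 weeks. Its mean of the doses was lowest at 2 hours at 2 weeks, and lowest at 6 hours at 7 and 13 weeks. It was nearest to air at 20 hours at each exposure length. At 2 hours it stood at -0.79, -0.71 and -0.64 at the high dose after 2, 7 and 13 weeks, and at -0.56, -0.47 and -0.51 at the low dose. At 6 hours it stood at -0.22, -0.71 and -1.06 at the high dose and at -0.07, -0.76 and -0.81 at the low dose. At 20 hours it stood at -0.07, -0.30 and -0.56 at the high dose and at 0.04, -0.27 and -0.45 at the low dose. The 2-hour values were thus alike over the weeks, while at 6 and 20 hours the 2 week samples lay nearest to air. With 1 mean per combination, whether hours act differently by week could not be tested. Over hours Wif1 had adjusted p = 0.327 in the limma F test. The difference was 0.345 ± 0.14 (SE) for 20 minus 2 hours (adjusted p = 0.33) and 0.34 ± 0.14 for 20 minus 6 hours (adjusted p = 0.369).

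Colec12 varied little over hours in the means of both doses. Its means over 6 samples were -0.47 ± 0.13 (SD) at 2 hours, -0.54 ± 0.22 at 6 hours and -0.42 ± 0.18 at 20 hours. These ranges overlapped, and the limma F test over hours gave adjusted p = 0.822. The doses ran differently. At 2, 6 and 20 hours the means of 3 samples were -0.45, -0.65 and -0.33 at the high dose. At the low dose they were -0.48, -0.42 and -0.52. The dose difference over hours did not pass (limma F test, adjusted p = 0.9997).

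**Figure D2:**
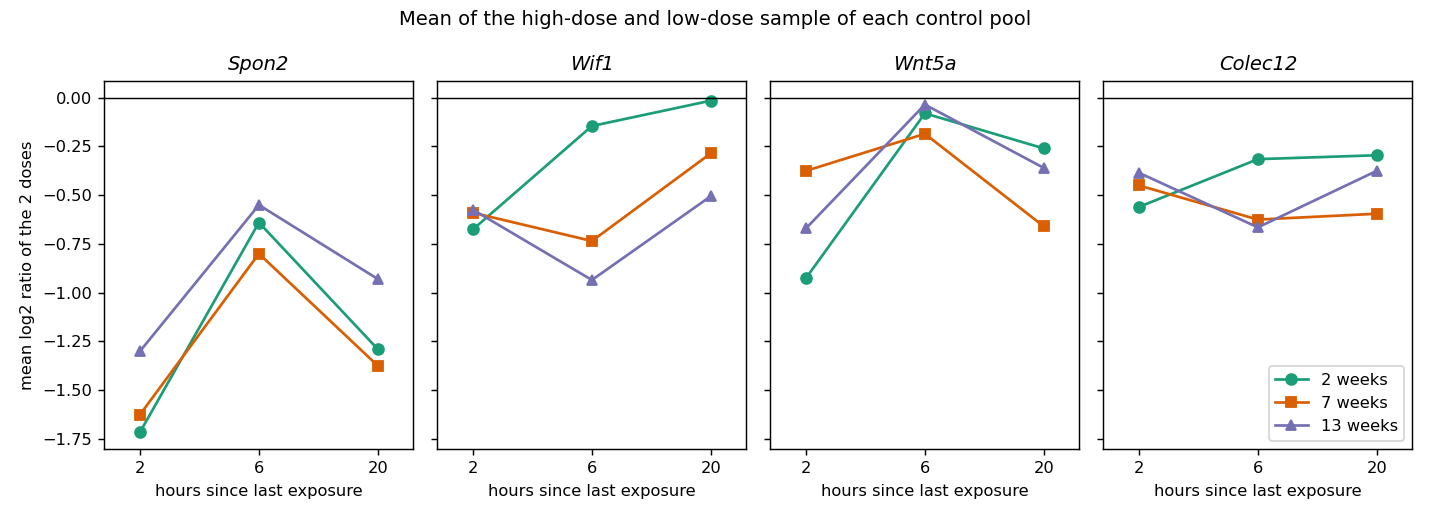
Mean log2 ratio of the high-dose and low-dose sample of an air pool (y axis) at 2, 6 and 20 hours after the last exposure (x axis, equally spaced), with 1 line per exposure length. In all 3 lines Spon2 is lowest at 2 hours and nearest to air at 6 hours, and Wif1 lies between -0.68 and -0.58 at 2 hours in every line.

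None of the 4 genes passed over the weeks of exposure, where 5 of 3994 genes did (0.125%) and 242 had an unadjusted p under 0.05. The Wif1 mean over 6 samples was -0.28 ± 0.33 (SD) at 2 weeks, -0.54 ± 0.22 at 7 weeks and -0.67 ± 0.23 at 13 weeks. Its mean of the doses was lower at 13 than at 2 weeks at 2 of 3 hours, and at 2 hours it ran the other way (-0.68, -0.59 and -0.58 at 2, 7 and 13 weeks). The difference of 13 minus 2 weeks was -0.39 ± 0.14 (SE, adjusted p = 0.624), and the limma F test gave adjusted p = 0.839. Spon2 stood at -1.22 ± 0.50 (SD) at 2 weeks, -1.27 ± 0.43 at 7 weeks and -0.93 ± 0.44 at 13 weeks, with adjusted p = 0.634 in the limma F test. Its mean of the doses was nearer to air at 13 than at 2 weeks at each of the 3 hours, an order whose share over all genes was not counted. Wnt5a stood at -0.42, -0.41 and -0.36 over the weeks (adjusted p = 0.981), and Colec12 at -0.39, -0.56 and -0.48 (adjusted p = 0.916).

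The mean log2 ratios of the 2 doses lay within 0.17 of each other for all 4 genes. Wif1 was lower at the high dose in 8 of 9 pairs with a shared air pool, with a mean difference of -0.13 ± 0.10 (SD, n = 9). By comparison, 2.7% of 3560 genes were lower at the high dose in at least 8 of 9 pairs. The Spon2 difference of high minus low dose was -0.17 ± 0.36, lower at the high dose in 6 of 9 pairs, and ran from -0.60 to 0.38. Wnt5a was higher at the high dose in 7 of 9 pairs (0.12 ± 0.36), and its 2 pairs the other way were both at 2 hours, -0.27 at 2 weeks and -0.54 at 13 weeks. The Wnt5a mean was 0.06 without 2 weeks at 6 hours, 0.0825 without 7 weeks at 20 hours and 0.21 without 13 weeks at 2 hours. For Colec12 the mean difference was -0.0011 ± 0.23, with 4 pairs lower and 5 higher. The spread between pairs was larger than the mean difference for Spon2, Wnt5a and Colec12.

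Whether the dose difference changed with time was tested on the 9 differences. With limma 0 of 3994 genes passed over hours and 0 over weeks (0% each), and 143 and 187 had an unadjusted p under 0.05. Wnt5a was among the 143, with an unadjusted p = 0.0258 over hours that was 1 after adjustment (0.9997), and the exact permutation test gave p = 0.139. Its difference of high minus low dose was above that at 2 hours by 0.63 ± 0.21 (SE) at 6 hours and by 0.45 ± 0.21 at 20 hours. The other three had an unadjusted p of 0.12 or more over hours and 0.278 or more over weeks.

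**Figure D3:**
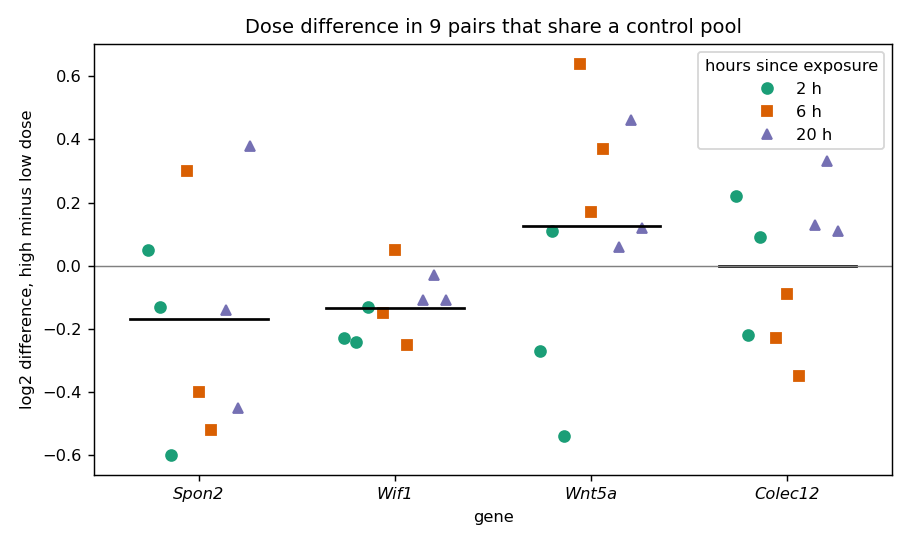
Log2 difference of high minus low dose (y axis) in each of 9 pairs that share an air pool, by gene (x axis), with symbols for the hours since exposure and a bar at the mean. Wif1 lies below 0 in 8 of 9 pairs, and the 3 Wnt5a values at 6 hours lie above 0.

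Few of the other Wnt genes tested passed at the high dose, where Frzb and Notum rose and Porcn and Gsk3b fell. In both directions this was a smaller share than that over all genes. In the high-dose samples 9.56% of 4016 genes rose and 7.64% fell by limma at an adjusted p under 0.05, and in the low-dose samples 3.51% rose and 1.44% fell. Of 4 other genes for ligands or their release, 1 fell at the high dose, Porcn, which attaches the lipid that Wnt proteins need (-0.16 ± 0.05 SE, adjusted p = 0.0416). Of 6 receptors 0 passed at either dose. The frizzled receptor Fzd2 had the largest mean, 0.24 ± 0.08 at the high dose (adjusted p = 0.0669). Of 16 signal transducers, 1 fell at the high dose, the kinase Gsk3b that marks beta-catenin for breakdown (-0.18 ± 0.06, adjusted p = 0.0386). Of 2 target genes 0 passed, and Axin2 stood at 0.09 ± 0.13 at the high dose. At the low dose 0 genes of these groups passed. Medians at the high dose were 0.047 for ligands, 0.119 for receptors, -0.034 for transducers and 0.064 for targets, beside 0.003 over all genes.

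Of 4 other secreted Wnt inhibitors tested, 2 rose at the high dose and 0 fell, with a median of 0.263. Over all genes 9.56% rose and 7.64% fell at this dose. Frzb, a frizzled-related decoy for Wnt proteins, rose by 0.45 ± 0.09 (SE, above air in 8 of 9 samples, adjusted p = 0.00334). Notum, which removes the lipid from Wnt proteins, rose by 0.34 ± 0.08 (in 8 of 9, adjusted p = 0.00733). At the low dose they stood at 0.14 ± 0.08 and 0.17 ± 0.06 and did not pass. The frizzled-related Sfrp1 and Sfrp4 stood at 0.18 ± 0.08 (adjusted p = 0.157) and -0.11 ± 0.05 (adjusted p = 0.17) at the high dose. The difference between Wif1 and these genes was not tested.

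**Figure D4:**
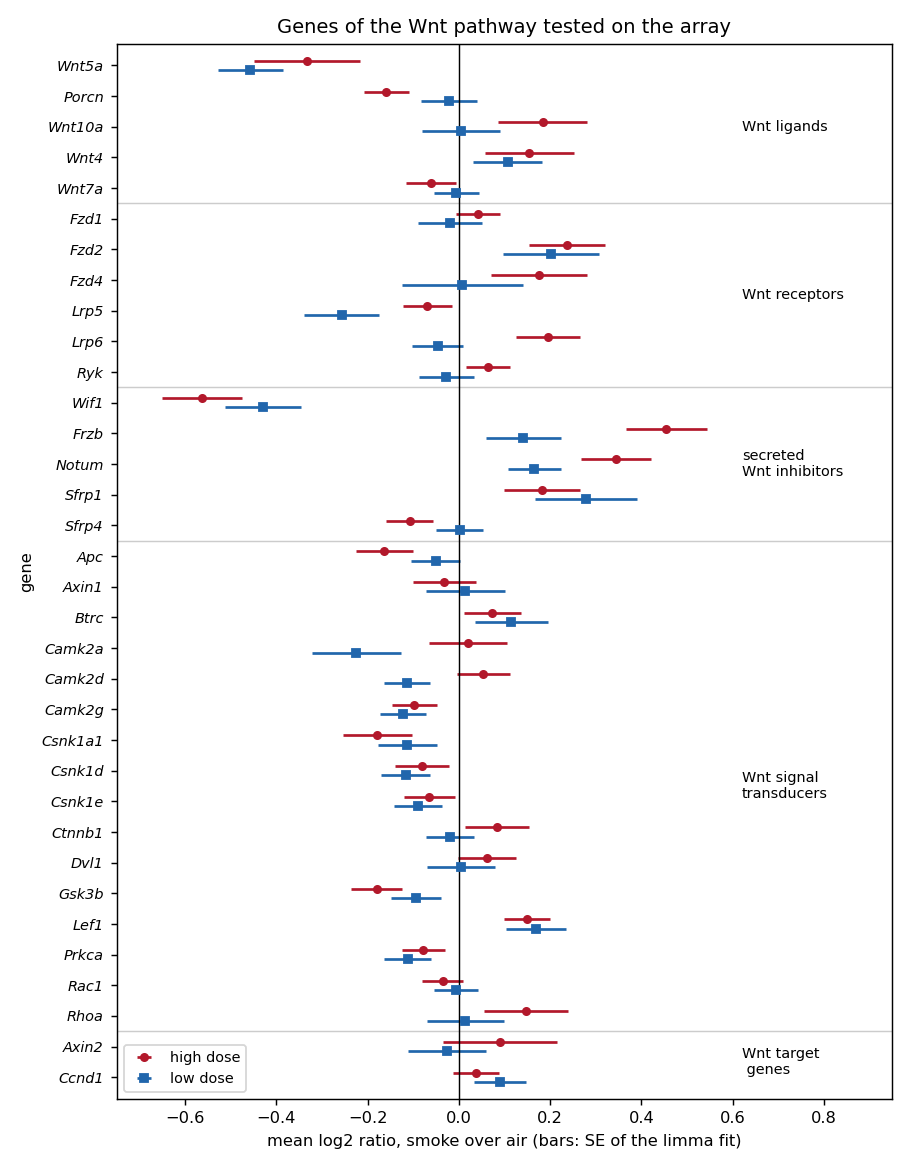
Mean log2 ratio of smoke over air with the SE of the limma fit (x axis, n of up to 9 samples) for Wnt5a, Wif1 and the other tested Wnt genes (y axis), with circles for the high dose and squares for the low dose. Wif1 at -0.56 lies below and Frzb at 0.45 above air within the group of secreted inhibitors.

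The genes listed beside Spon2 and Colec12 included some on both sides of air. Those tested beside Spon2 held no other spondin, so its closest family was not covered. Over all 4016 genes, 9.56% rose and 7.64% fell at the high dose, and 3.51% rose and 1.44% fell at the low dose. Of 4 proteins with thrombospondin repeats or their kin, the growth factor Ccn2 rose (0.51 ± 0.10 SE, adjusted p = 0.00409) and the matrix protease Adamts5 fell (-0.23 ± 0.07, adjusted p = 0.0396) at the high dose. Of 8 other collectins and scavenger receptors, 5 rose and 1 fell at the high dose, with a median of 0.43, and 4 rose and 0 fell at the low dose. The surfactant collectin Sftpa1 (0.54 ± 0.07, adjusted p = 0.000148) and the macrophage scavenger protein Cd68 (1.12 ± 0.10, adjusted p = 4.65e-06) rose where Colec12 lay below air. The 1 that fell was the ficolin Fcnb (-0.46 ± 0.14, adjusted p = 0.0417), on the same side of air as Colec12. Of 22 matrix proteins, 1 rose and 10 fell at the high dose (median -0.204), and 1 rose and 6 fell at the low dose (median -0.156). The falls were led by the collagen Col5a2 (-0.57 ± 0.09, adjusted p = 0.000628) and the cross-linking enzyme Loxl1 (-0.54 ± 0.08, adjusted p = 0.000413).

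Markers of several lung cell types passed against air, though not those of smooth muscle. Some of them were already counted above, so these are not separate findings. Col1a1, Col1a2, Col3a1, Dcn, Lum and Fbln1 are also among the matrix proteins. Cd68, Mrc1, Sftpa1 and Sftpd are also among the collectins and scavenger receptors. The shares over all genes were 9.56% up and 7.64% down at the high dose, and 3.51% up and 1.44% down at the low dose. Of 11 fibroblast markers, 4 fell and 0 rose at the high dose, among them the collagens Col1a1 (-0.53 ± 0.14 SE, adjusted p = 0.0168) and Col3a1 (-0.50 ± 0.09, adjusted p = 0.00141). Their median ran from -0.425 to 0.06 over the 18 samples. By hours this median stood at -0.218, -0.225 and -0.08 at 2, 6 and 20 hours, and 0 of the 11 passed over hours. Of 5 smooth muscle markers 0 passed, with Tagln at -0.13 ± 0.06 (adjusted p = 0.138). Of 7 endothelial markers 3 fell and 0 rose, with the junction protein Cdh5 at -0.35 ± 0.07 (adjusted p = 0.00574) and the receptor Tek at -0.24 ± 0.07 (adjusted p = 0.0322). Of 7 lymphocyte markers 7 fell, with the B cell receptor chain Cd79b at -0.61 ± 0.10 (adjusted p = 0.00141) and the granule protein Prf1 at -0.57 ± 0.11 (adjusted p = 0.00313). Of 7 macrophage markers 5 rose and 2 fell. Lgals3 stood at 1.28 ± 0.10 (adjusted p = 2.84e-06). The 2 that fell were Adgre1 (-0.72 ± 0.06, adjusted p = 4.65e-06) and Csf1r (-0.19 ± 0.06, adjusted p = 0.0377). Of 6 alveolar markers 3 rose and 1 fell, with Sftpd at 0.50 ± 0.08 (adjusted p = 0.00066) and Aqp5 at -0.29 ± 0.07 (adjusted p = 0.0158). Of 3 airway markers 1 rose, the cilia regulator Foxj1 (0.52 ± 0.11, adjusted p = 0.00544). At the low dose 2 fibroblast markers fell, 0 endothelial and 0 airway markers passed, and 1 lymphocyte marker fell, with a lymphocyte median of -0.522 at the high dose and -0.123 at the low dose. There 4 macrophage markers rose and 1 fell, 3 alveolar markers rose, and 0 smooth muscle markers passed. The part of these markers in the values of the 4 genes was not tested.

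The 4 genes fell into 2 pairs by their values over the samples. Over the 18 log2 ratios Pearson's r was 0.635 between Spon2 and Wnt5a and 0.581 between Wif1 and Colec12, while the other 4 pairs of genes lay between -0.078 and -0.001. These points share air pools in twos and 1 dye orientation, and they are given as a description. Among 3560 genes, the most like Spon2 were Loxl1 (r = 0.836), the kinase anchor Akap12 (0.836) and the ficolin Fcnb (0.809). The most like Wnt5a were the kinase Mapk6 (0.792), the transglutaminase Tgm2 (0.784) and the chaperonin subunit Cct8 (0.769). For Wif1 these were the exchange factor Arhgef2 (0.805), the Notch ligand Dll4 (0.753) and the condensin subunit Ncaph2 (0.752). For Colec12 they were the sodium channel subunit Scnn1g (0.701), the RNA-binding protein Nono (0.688) and Arhgef2 (0.685). The value of r that 1% of all genes exceeded was 0.621 for Spon2, 0.607 for Wif1, 0.623 for Wnt5a and 0.521 for Colec12.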

How the data were processed

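Whole-lung RNA of 18 pooled samples was read on 2-colour PIQOR arrays, and the authors deposited 1 table of 11994 rows. Pooled RNA was linearly amplified before labelling, per the labels, and each sample was split over 2 arrays. The deposited values are log2 ratios of smoke (Cy5) over air (Cy3), a direction taken from the labels. Each of 257 values below -1 is what a ratio with 2 decimals gives on a log2 scale (100%, tolerance 0.0051), and sample medians lie between -0.01 and 0.01, so the values appear centred. How spots were scanned, filtered and normalized is not given in the sources used here, and signal over background is unknown. A sample had values for 3919 to 4583 named genes, and precision is limited by how few arrays there are.

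Rows of a gene with equal values were merged, and probes of one gene were averaged. Rows with a symbol numbered 9658, of which 9614 matched a gene identifier in GRCr8. Genes with both doses in at least 6 of 9 combinations were tested with limma 3.58.1 in R 4.3.3 (lmFit, eBayes, two-sided, Benjamini-Hochberg over all genes, threshold 0.05), checked on simulated data. Promoters were searched in Python 3.11.15. Pools are 1 per condition, so the spread is that between combinations.

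The members and lists were chosen with earlier results of these data known. Up to 2 list genes past the threshold with the largest mean at the high dose were named, otherwise 1, and the 3 most alike genes per member. Sfrp1, Sfrp4, Fcnb, Mgp, Spp1, Adgre1, Csf1r and Aqp5 were named beyond this rule, to show the rest of their lists.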

Additional observations from a re-analysis of the deposited data

How the results depend on the processing

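Mean log2 ratios against air and dose differences of the 4 genes moved by less than 1 SD on centred samples and as medians. The same held with each combination left out. Leaving out 1 of 9 values, or taking the median, could not have gone beyond 1 SD, so this bound was met in advance. With a combination left out the high-dose mean ran from -1.31 to -1.16 for Spon2 and -0.62 to -0.50 for Wif1. It ran from -0.40 to -0.24 for Wnt5a and -0.505 to -0.43 for Colec12. The dose difference ran from 0.06 to 0.21 for Wnt5a and -0.0425 to 0.0425 for Colec12. Over hours, where 64 genes passed, the count was 29 to 68 with a combination left out, lowest without 7 weeks at 6 hours (29) and 7 weeks at 20 hours (35). It was 32 with the high dose alone, 18 with the low dose alone, and 36, 18 and 32 without the 2, 7 and 13 week samples, fits with fewer samples. Spon2 passed over hours with every combination left out (adjusted p 0.0033 to 0.0207) and lost the call with the high dose alone (0.102). Over weeks, where 5 genes passed, the count was 2 to 7 with a combination left out (2 without 2 weeks at 2 or 20 hours, 3 without 2 or 7 weeks at 6 hours), 2 with no covariate, 3 with samples scaled to 1 interquartile range (chosen after seeing the data), 2 and 1 with the high and low dose alone, and 2 without the 2 hour or the 20 hour samples. None of the 4 genes passed over weeks in these fits. The dose difference by weeks gave 0 to 1 genes with a combination left out. Tested against a fold of 1.5, 14 genes passed at the high dose in place of 691, and 1 at the low dose in place of 199. With a combination left out the counts were 498 to 679 at the high dose and 123 to 193 at the low dose, 123 without 13 weeks at 2 hours. For the counts that moved, the cause was not tested beyond fewer samples or a stricter test. Signal over background is unknown, so a limit from dim spots could not be set.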
